A study of Mus musculus with 8 samples.

Results

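The proteasome is the protease that breaks down ubiquitin-tagged proteins, and its subunit genes were followed in cultured mouse blood progenitors with and without malonyl-CoA. Members were the protein-coding genes whose symbol begins with Psma to Psmg followed by a number, with Ensembl identifiers matched to GENCODE M21 (genome build GRCm38). The rule found 50 genes among 48709 gene identifiers, and 49 of them passed the filter on low counts, which kept 12696 genes in all. Psmb11, the catalytic subunit of the thymus proteasome, had a count of 0 in all 8 libraries. The 49 tested genes were 5 immunoproteasome genes (Psmb8, Psmb9, Psmb10, Psme1, Psme2) and 44 others. A pair of the 44 matched by symbol only: Psmc3ip encodes a meiotic recombination factor, and Psme2b is a weakly expressed relative of Psme2.

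Cells were hematopoietic stem and progenitor cells (HSPCs) of C57Bl/6J mice, sorted as lineage-negative, Sca1+ and cKit+, and seeded at 10000 per well. The 4 malonyl-CoA libraries came from wells with 100 µM malonyl-CoA, a building block of fatty acid synthesis that also inhibits fatty acid entry into mitochondria, and the 4 control libraries from wells without it. Culture lasted 7 days in both groups, without serum, on 100 ng/ml stem cell factor plus 2 ng/ml Flt3 ligand, so the total RNA libraries describe the progeny and not the cells as sorted. Replicates are numbered 1, 3, 4 and 5 in both groups and are called biological replicates, with no word on whether each is an animal or a culture, so that p-values measure the spread between these samples only.

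The 26S proteasome consists of a 20S barrel of alpha and beta rings and 19S caps that bind, unfold and feed in substrates. In the barrel, Psmb5 cuts after hydrophobic residues, Psmb6 after acidic ones and Psmb7 after basic ones. In hematopoietic cells and after interferon, Psmb8, Psmb9 and Psmb10 can be built in instead of Psmb5, Psmb6 and Psmb7, and Psme1 and Psme2 form the PA28 cap. This immunoproteasome supplies many of the peptides that Tap1 and Tap2 carry to MHC class I molecules, and Psmb8, Psmb9, Tap1 and Tap2 lie together in the MHC.

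Promoter stretches of 3 immunoproteasome genes and of 2 subunits that they can replace are shown because they hold a short motif searched for here. None of these motifs was found in the windows of Psmb10 and Psme2, which are not printed, and Psmb7 had no window in the table. Promoter windows of 300 bases, from 250 before to 50 after a gene's start, were taken from RefSeq (GRCm38.p6) for 42 of the 50 genes, with 45 windows in all. Each stretch below is written 5′ to 3′ on the gene's strand, with the motif in capitals.
Psmb8, + strand, chr17:34198068-34198136, capitals TTCNNNGAA (STAT): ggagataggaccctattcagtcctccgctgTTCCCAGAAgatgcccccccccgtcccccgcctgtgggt
Psme1, + strand, chr14:55578474-55578518, capitals the reverse complement of GAAANNGAA (IRF): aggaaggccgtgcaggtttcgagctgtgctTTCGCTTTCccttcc
Psmb5, - strand, chr14:54618004-54618072, capitals TGACNNNGC (antioxidant response): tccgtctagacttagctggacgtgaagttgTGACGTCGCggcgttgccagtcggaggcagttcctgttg
Psmb6, + strand, chr11:70525318-70525381, capitals TGACNNNGC (antioxidant response): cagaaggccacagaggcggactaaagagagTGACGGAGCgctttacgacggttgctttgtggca
Psmb9, - strand, chr17:34187306-34187580, the stretch that the Psmb9 and Tap1 windows share, capitals the reverse complement of CCAAT: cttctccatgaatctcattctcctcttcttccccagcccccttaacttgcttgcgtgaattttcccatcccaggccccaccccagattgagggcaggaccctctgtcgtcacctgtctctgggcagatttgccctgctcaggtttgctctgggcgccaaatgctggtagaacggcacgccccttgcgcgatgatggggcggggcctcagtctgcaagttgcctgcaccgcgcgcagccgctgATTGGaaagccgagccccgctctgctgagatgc

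Both strands of each window were searched, and the IRF and STAT patterns may share their GAA. The IRF pattern was in 7 of 45 member windows (15.6%), against 8.56% of all 32851 windows. Psme1 was the immunoproteasome gene among the 7. The STAT pattern was in 3 windows (6.67%, against 8.30% of all), and Psmb8 was one of them. The antioxidant response pattern, bound by Nfe2l1 and Nfe2l2, was in 6 windows (13.3%, against 12.4%), and CCAAT was in 15 (33.3%, against 37.4%). The NF-kB pattern GGGANTTCC was in none of the 45, against 1.68% of all, which says only that these letters are not in these windows. Psmb9 and Tap1 are transcribed away from each other from the printed stretch, and 212 bases of their exons overlap on opposite strands. Because the strand setting of the counting is not given in the sources used here, reads of the overlap cannot be assigned, and the same holds for the 498 exon bases that Psmb8 shares with the antisense gene Gm20496.

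Depth was 17492085 to 22079844 gene counts per library, and 2 libraries stood apart. In malonyl-CoA 4, 2.94% of tallied reads lay in no gene, against 1.11% to 1.56% in the other 7 libraries. In control 5, the deviation of a gene's log2 CPM (library-scaled counts with TMM factors) from its mean over the libraries followed the GC content of its transcript. Across tested genes with a mean log2 CPM above 2, Spearman's rho was -0.74, against 0.52 in malonyl-CoA 1 and -0.11 to 0.25 in the other 6. Of 8 stem and progenitor markers, Mecom alone averaged under 1 CPM. Their summed level was 1011 to 1051 CPM with malonyl-CoA and 1099 to 1196 CPM in control, without overlap. On average 3 of the 8 were higher and 5 lower with malonyl-CoA. Granulocyte markers summed to 13271 to 17080 CPM with malonyl-CoA and 12864 to 20561 CPM in control, with all 8 lower on average with malonyl-CoA, and monocyte and macrophage markers summed to 1145 to 1393 CPM with malonyl-CoA and 1021 to 1460 CPM in control. The sums also did not overlap for mast and basophil markers, at 664 to 802 CPM with malonyl-CoA and 804 to 998 CPM in control. Of these 8 markers, 3 were higher and 5 lower with malonyl-CoA. Nor did they overlap for erythroid markers, at 9.91 to 11.4 CPM with malonyl-CoA and 12.6 to 16.4 CPM in control. Of the 4 erythroid markers tested, 1 was higher and 3 were lower. Dendritic cell markers summed to 313 to 403 CPM with malonyl-CoA and 284 to 398 CPM in control. Col3a1, Dcn and Lum of connective tissue and Cd3e of T cells were at 0 in every library. The part of these cell type differences in any result was not tested, and in bulk RNA fewer cells of a type cannot be told apart from less RNA per cell.

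No proteasome gene passed the test of malonyl-CoA against control. With edgeR's quasi-likelihood test and Benjamini-Hochberg adjustment over 12696 genes, 0 of 49 members and 0% of all genes were called at an adjusted p under 0.05. DESeq2 and limma-voom also called 0 members, against 0.597% of the 13745 genes to which DESeq2 gave an adjusted p, and 0% of genes with limma-voom. At an unadjusted p under 0.05, 0 members were higher with malonyl-CoA, against 5.43% of all genes, and 1 was lower, against 4.1% of all genes. In 1 member all malonyl-CoA libraries lay above all controls (3.21% of all genes), and in 1 they lay below (2.93% of all genes). These shares were no larger than those over all genes. The median log2 fold change of the 49 members was 0.03, against 0.02 over all genes, and their fold changes ran from -0.47 to 0.35. The 95% interval lay within 1.5-fold in either direction for 35 of the 49 members, and for 5939 of the 12696 genes. Among 5415 genes within the members' middle range of level (33.1 to 295 CPM), it did so for 3519.

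**Figure D1:**
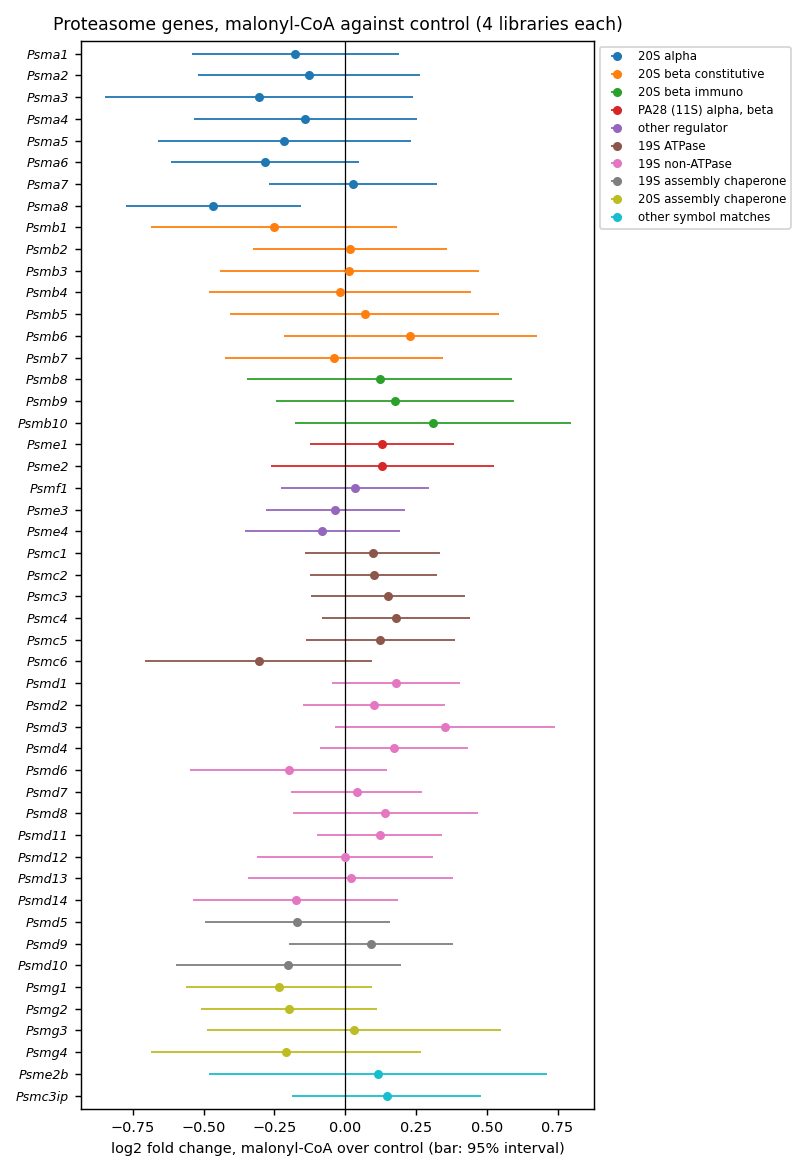
Log2 fold change of malonyl-CoA over control for the 49 tested proteasome genes, grouped by role, with 95% intervals from the edgeR fit (4 libraries in each group). Point estimates lie between -0.47 and 0.35, and the interval of Psma8 alone excludes 0 before adjustment.

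The 5 immunoproteasome genes each had a positive log2 fold change, from 0.12 to 0.31 with a median of 0.13, against 0.02 for the median of the 44 other members, of which 24 were positive and 20 negative. None of the 5 was called (edgeR adjusted p = 0.559 to 0.799), and in none did the groups part. Psmb8 (ENSMUSG00000024338, chromosome 17, 34197721 to 34201454) stood at 336, 314, 215 and 367 CPM in malonyl-CoA 1, 3, 4 and 5, against 344, 321, 272 and 193 CPM in controls 1, 3, 4 and 5. Malonyl-CoA 4 and control 5 were the low library of their groups, and the other 6 lay close together. The means were 308 ± 65.6 CPM with malonyl-CoA and 283 ± 66.8 CPM in control (SD, n = 4 each), a log2 fold change of 0.12 (SE 0.21, 95% interval -0.35 to 0.59, edgeR adjusted p = 0.799).

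Psmb9 (ENSMUSG00000096727, chromosome 17, 34181987 to 34187764) had 127, 114, 87.1 and 152 CPM with malonyl-CoA, against 119.9, 121, 103 and 80.4 CPM in control. The same libraries were again the low ones, with a log2 fold change of 0.18 (SE 0.19, edgeR adjusted p = 0.680). Psmb10 (ENSMUSG00000031897, chromosome 8, 105935735 to 105938444) had 135, 119.8, 89.2 and 155 CPM with malonyl-CoA, against 115, 113, 110.2 and 64.2 CPM in control. Malonyl-CoA 4 lay below controls 1, 3 and 4, so the groups overlapped although the other 3 malonyl-CoA libraries exceeded every control. Its log2 fold change of 0.31 was the largest of the immunoproteasome genes (SE 0.22, 95% interval -0.18 to 0.80, edgeR adjusted p = 0.559).

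The PA28 genes lie 5911 bases apart on chromosome 14. Psme1, the alpha subunit, had 192, 199, 184 and 230.1 CPM with malonyl-CoA, against 164, 180.0, 188 and 204 CPM in control (log2 fold change 0.13, SE 0.11, edgeR adjusted p = 0.622). It did not share the low value of control 5, which was its highest control. Psme2, the beta subunit, had 165, 158, 103 and 193 CPM with malonyl-CoA, against 145, 151, 127 and 141 CPM in control (log2 fold change 0.13, SE 0.18, edgeR adjusted p = 0.742). Malonyl-CoA 4 was its lowest library, and the other 3 malonyl-CoA libraries lay above every control. Without control 5 and malonyl-CoA 4, all 5 genes kept a positive log2 fold change, with a median of 0.22, and 0 were called. With a correction for GC content, 4 of 5 were positive, Psme1 turned to -0.10 and the median was 0.02. The median GC content of the 5 transcripts was 54.1%, against 49.4% over all genes tested, and the part of GC content in these values was not tested further.

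**Figure D2:**
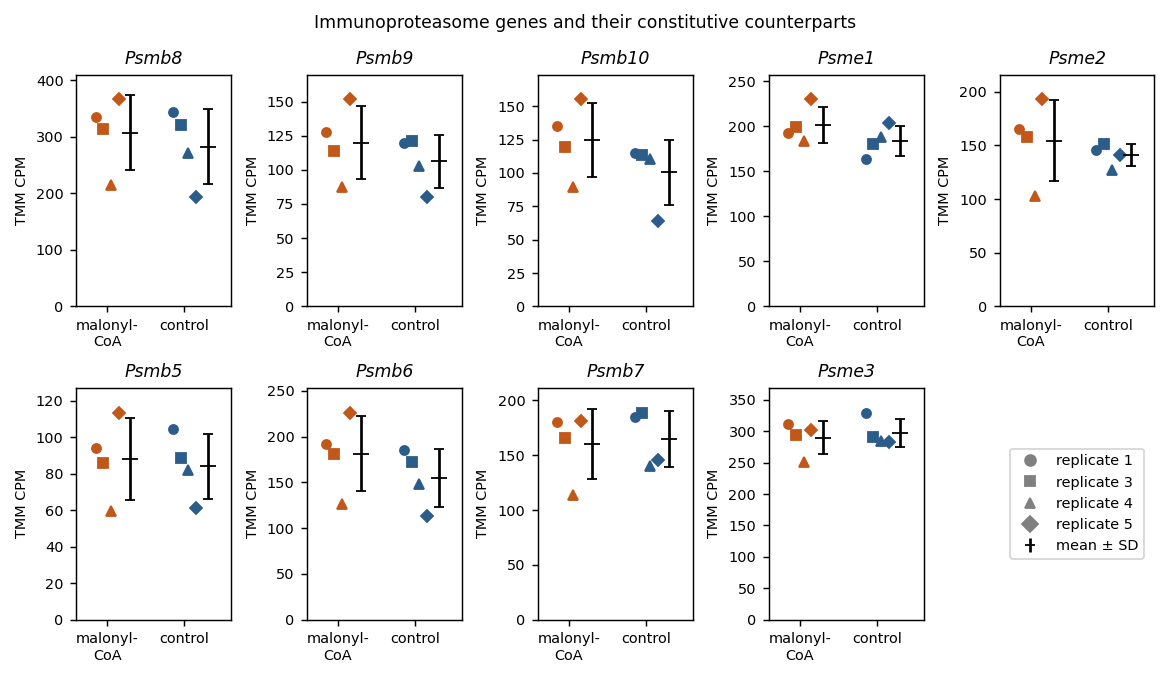
CPM with TMM factors of the immunoproteasome genes (top row) and their constitutive counterparts (bottom row) in malonyl-CoA (orange, left) and control (blue, right) libraries, with marker shape for the replicate number and mean ± SD of 4 libraries. Groups overlap in all 9 panels, and malonyl-CoA 4 and control 5 are the low points of Psmb8, Psmb9, Psmb10, Psmb5 and Psmb6.

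Of the constitutive catalytic subunits, Psmb5 and Psmb6 spread between libraries as Psmb8, Psmb9 and Psmb10 did, with malonyl-CoA 4 and control 5 low. Psmb7 was low in malonyl-CoA 4 too, but its lowest control was control 4. Psmb5 had 93.8, 85.8, 59.5 and 113 CPM with malonyl-CoA, against 104, 88.7, 81.8 and 61.2 CPM in control (log2 fold change 0.07, edgeR adjusted p = 0.894). Psmb6 had 192, 181, 127 and 226 CPM with malonyl-CoA, against 185, 173, 149 and 113 CPM in control (0.23, adjusted p = 0.620). Psmb7 had 180.4, 166, 114 and 181 CPM with malonyl-CoA, against 185, 189, 140.3 and 146 CPM in control (-0.04, adjusted p = 0.927). As for the subunits that replace them, malonyl-CoA 4 was the low library among the treated ones and the groups overlapped.

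Each immunoproteasome subunit was also divided by its counterpart within a library. On the scale of CPM per kilobase of the principal transcript, the Psmb8 to Psmb5 ratio was 1.98, 2.02, 2.00 and 1.79 with malonyl-CoA, against 1.82, 2.00, 1.84 and 1.74 in control. The Psmb9 to Psmb6 ratio was 0.391, 0.370, 0.406 and 0.396 with malonyl-CoA, against 0.382, 0.415, 0.409 and 0.419 in control. These ratios varied little between libraries and the groups overlapped. The Psmb10 to Psmb7 ratio was 0.662, 0.639, 0.693 and 0.758 with malonyl-CoA, against 0.550, 0.531, 0.695 and 0.390 in control. All 4 malonyl-CoA values lay above controls 1, 3 and 5, but control 4 exceeded 3 of them. The difference of the mean log2 ratios was 0.37 over all 8 libraries and 0.22 without control 5 and malonyl-CoA 4. Taken from the fitted log2 fold changes it was 0.35, and 0.057 with the GC correction, with a transcript GC content of 56.5% for Psmb10 and 40.8% for Psmb7. The ratio of Psme1 to Psme3 was 1.48, 1.62, 1.75 and 1.83 with malonyl-CoA, against 1.19, 1.48, 1.59 and 1.73 in control, and that of Psme2 to Psme3 was 1.46 ± 0.26 with malonyl-CoA and 1.32 ± 0.11 in control (SD, n = 4 each). Both overlapped. Ratios were described without a test, and their size depends on the transcript length used. Over all annotated exons the averages passed to the other side of 1 for 4 of the 5 pairs: 0.914 for Psmb8 to Psmb5, 1.39 for Psmb10 to Psmb7, 0.882 for Psme1 to Psme3 and 0.839 for Psme2 to Psme3.

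**Figure D3:**
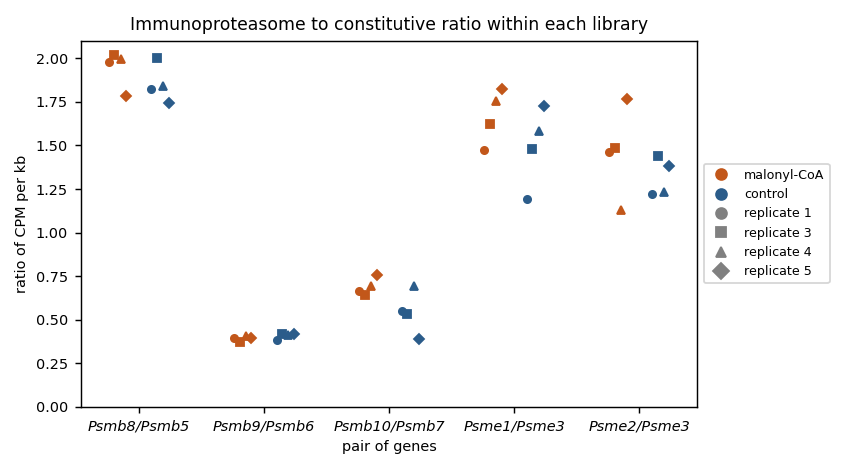
Ratio of CPM per kilobase of the principal transcript between each immunoproteasome gene and its constitutive counterpart in every library, malonyl-CoA (orange) left of control (blue), with marker shape for the replicate number. The groups overlap for all 5 pairs, and control 5 is the lowest point of Psmb10 to Psmb7, at 0.390.

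Levels differed widely between subunits of the same particle. Per kilobase of principal transcript and averaged over the 8 libraries, the highest were Psma6 at 289, Psma1 at 276, Psmb4 at 249 and Psma7 at 236 CPM. This order too depends on the length used. Over all annotated exons Psma6 stayed highest at 244, with Psmb4 at 151, Psma1 at 112 and Psma7 at 70.3. Among the catalytic subunits the order was Psmb6 at 211, Psmb8 at 181, Psmb7 at 140, Psmb5 at 95.7, Psmb10 at 86.0 and Psmb9 at 83.6 CPM per kilobase. The immunoproteasome subunit was thus above its counterpart for the Psmb5 position and below it for the Psmb6 and Psmb7 positions on this length scale, and over all annotated exons the order turned for the Psmb5 and Psmb7 positions. Psme1 at 173 and Psme2 at 154 CPM per kilobase were above Psme3, the nuclear PA28 gamma, at 110.2, but over all annotated exons they stood at 87.2 and 83.8, below Psme3 at 99.5. Psma3, an alpha subunit of every barrel, was at 13.8 CPM per kilobase, far under the other ubiquitous alpha subunits, of which the next was Psma2 at 93.5. Psma1, Psma2, Psma3 and Psmb4 are named for their place in this order, after their values were seen. Reads that aligned to several positions were not counted to genes and made up 38.2% to 51.1% of tallied reads, so genes with close copies can be undercounted.

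Among the alpha subunits of the barrel, 7 of 8 had a negative log2 fold change (median -0.20), and Psma8 was the member with the smallest p of all 49. Psma8, the testis-type paralog of Psma7 (chromosome 18, 14706151 to 14762301), had 6.96, 6.79, 5.98 and 7.21 CPM with malonyl-CoA, against 8.90, 9.47, 8.76 and 10.05 CPM in control. Every malonyl-CoA library lay below every control. At a log2 fold change of -0.47 (SE 0.14, 95% interval -0.77 to -0.16, edgeR adjusted p = 0.399) it did not pass over all genes, and at 4.74 CPM per kilobase it lay far under Psma7. Psma6, with 298, 285, 199.8 and 305 CPM with malonyl-CoA and 353, 355, 290.0 and 325 CPM in control, was next (-0.28, edgeR adjusted p = 0.516). Here malonyl-CoA 1 and 5 overlapped control 4. Psma7 was the 1 alpha subunit with a positive value, 0.03. How far the alpha ring was shifted varied with the setting. Over 20 alternatives, 0 to 4 of the 8 were positive, and the median ran from -0.32 to 0.01. Without both control 5 and malonyl-CoA 4, 4 of 8 were negative and the median was 0.01. Leaving out 1 of them gave 6 of 8 negative, with a median of -0.13 without control 5 and -0.06 without malonyl-CoA 4. All 8 were negative without malonyl-CoA 5 (median -0.32) and without control 4 (median -0.27). The negative count was 7 of 8 (median -0.13) without both libraries numbered 4, and 8 of 8 (median -0.19) with the GC correction.

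Of the 7 constitutive beta subunits, 4 had a positive and 3 a negative log2 fold change, with a median of 0.01. Psmb1, a non-catalytic beta subunit, was the lowest, with 343, 319, 215 and 410.0 CPM with malonyl-CoA, against 431, 385, 302 and 413 CPM in control (-0.25, edgeR adjusted p = 0.585). Its groups overlapped. Leaving out Psma8, the 14 constitutive barrel genes had 5 positive and 9 negative values (median -0.08), against 10 positive and 4 negative without control 5 and malonyl-CoA 4 (median 0.04). Malonyl-CoA 4 was the lowest of the 8 libraries for 12 of these 14 genes, with a median log2 deviation of -0.50.

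In the 19S cap, 14 of 17 subunits had a positive log2 fold change, with a median of 0.10, against 6778 of 12696 genes (53.4%) over all genes. None of the 17 was called, and the count was 14 of 17 without control 5 and malonyl-CoA 4 but 10 of 17 after the GC correction. With the GC and length correction it was 14 of 17, and over 20 alternatives it ran from 10 to 15. The ATPases, which unfold the substrate, were positive in 5 of 6 (median 0.11). Psmc4 had 148, 137, 134 and 157 CPM with malonyl-CoA, against 133, 129, 141 and 107 CPM in control (0.18, edgeR adjusted p = 0.545). Psmc6 was the ATPase with a negative value, with 199, 205, 149 and 225 CPM with malonyl-CoA, against 240.0, 228, 183 and 309.7 CPM in control (-0.31, adjusted p = 0.530). In Psmc4 control 4 overlapped the treated libraries, and in Psmc6 control 4 lay below 3 of them. The Psmc6 transcript has the lowest GC content of the 49, 37.0%, and its highest value was in control 5.

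The 11 other cap subunits, which hold the lid and the ubiquitin receptors, were positive in 9 cases (median 0.10). Psmd3, a lid scaffold, had 153, 141, 163 and 145 CPM with malonyl-CoA, against 125, 126, 143 and 77.5 CPM in control, the largest positive log2 fold change of the 49 (0.35, SE 0.17, 95% interval -0.03 to 0.74, edgeR adjusted p = 0.515). Control 4 overlapped malonyl-CoA 3, and control 5 was lowest. Psmd11, another lid subunit, was the 1 member whose malonyl-CoA libraries all lay above the controls, at 104, 101, 110.2 and 102 CPM against 85.5, 97.5, 100.0 and 101 CPM, a gap under 1 CPM (0.12, adjusted p = 0.60), and it is named for this after its values were seen. Psmd1, the large scaffold of the base, had 227, 234, 211 and 218 CPM with malonyl-CoA, against 174, 199, 213 and 199.8 CPM in control (0.18, adjusted p = 0.522). Control 4 exceeded malonyl-CoA 4 there. Psmd6 of the lid (-0.20, adjusted p = 0.588) and Psmd14, the deubiquitinase that strips ubiquitin from substrates (-0.18, adjusted p = 0.636), were the negative ones.

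Other caps and the inhibitor lay near 0. Psme3 had 312, 294, 251 and 302 CPM with malonyl-CoA, against 329.7, 291, 285 and 283 CPM in control (-0.03, edgeR adjusted p = 0.896). Psme4, the PA200 cap, had 131, 140.1, 113 and 124 CPM with malonyl-CoA, against 134, 139, 112 and 151 CPM in control (-0.08, adjusted p = 0.777). Psmf1, the inhibitor PI31, had 50.4, 44.9, 43.3 and 50.02 CPM with malonyl-CoA, against 48.1, 45.6, 50.1 and 40.3 CPM in control (0.03, adjusted p = 0.903). Groups overlapped in all 3 genes. Their 95% intervals excluded a 1.5-fold difference in either direction.

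No assembly factor passed. Of the 4 barrel chaperones, 3 were negative, of which the smallest p belonged to Psmg1 (-0.23, edgeR adjusted p = 0.539) and Psmg2 (-0.20, adjusted p = 0.559), and Psmg3 stood at 0.03. Of the cap chaperones, Psmd5 (-0.17) and Psmd10 (-0.20) were negative and Psmd9 positive (0.09), with edgeR adjusted p from 0.616 to 0.757. The symbol matches outside the particle, Psmc3ip at 0.15 and Psme2b at 0.12, were not called either.

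**Figure D4:**
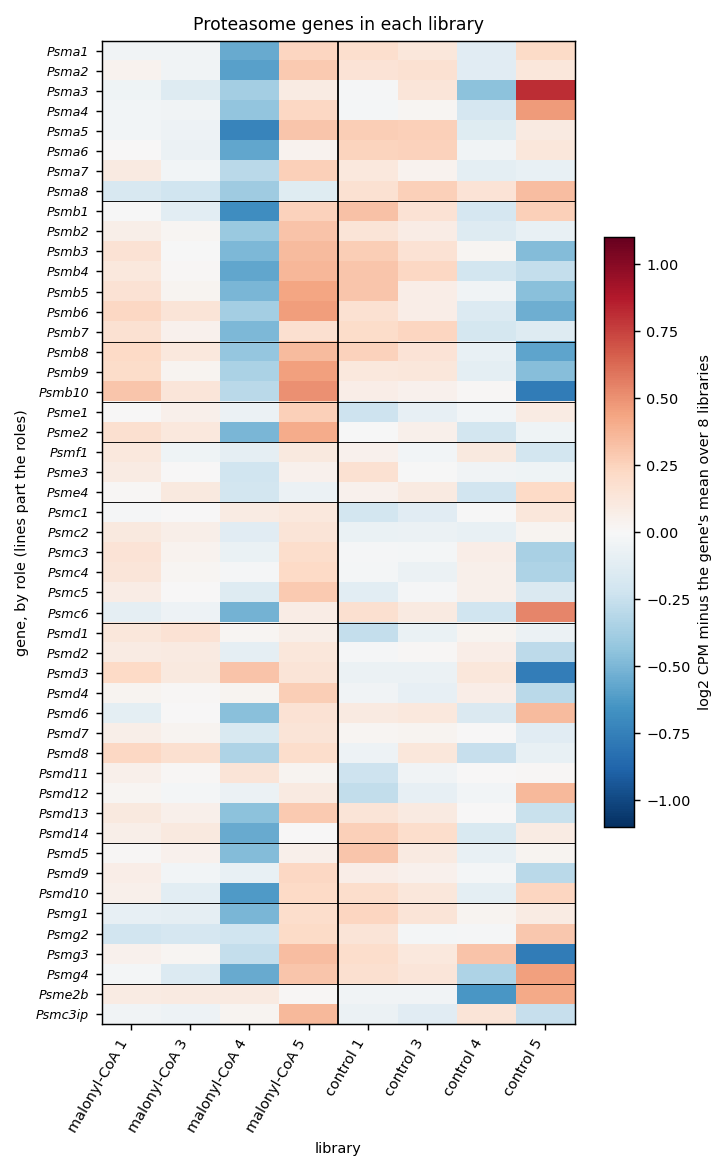
Log2 CPM of the 49 tested proteasome genes minus each gene's mean over 8 libraries (colour), malonyl-CoA libraries on the left and control libraries on the right, with genes grouped by role. Malonyl-CoA 4 is low across the barrel genes (median -0.50 over 14) and malonyl-CoA 5 high (median 0.28). Control 5 is low for Psmb8, Psmb9 and Psmb10 (median -0.58), and for Psmb5 (-0.46) and Psmb6 (-0.54), but not for Psme1 and Psme2.

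In every member but Psma8 and Psmd11 the groups overlapped, and single libraries lay low or high across many subunits. Malonyl-CoA 4 was the lowest library for 27 of the 49 members (55.1%), against 24.4% of all genes. Malonyl-CoA 5 was the highest for 25 of them, against 9.88% of all genes. The low level in malonyl-CoA 4 was uneven between roles, with median log2 deviations of -0.50 in the constitutive barrel, -0.35 in the immunoproteasome genes and -0.10 in the 19S cap. Control 4 was the lowest control in the constitutive barrel, at -0.14 against 0.20, 0.15 and 0.01 in controls 1, 3 and 5. It was not the lowest control in the immunoproteasome genes or the cap. In control 5 the immunoproteasome genes had a median deviation of -0.46, against 0.01 in the constitutive barrel and -0.08 in the cap. The low value was not particular to these genes. Psmb5 stood at -0.46, Psmb6 at -0.54 and Psmb7 at -0.14 there, whereas Psme1 stood at 0.09 and Psme2 at -0.05. The median in control 5 was -0.26 for the constitutive beta subunits and 0.17 for the alpha subunits with Psma8. Across the 49 members, deviation and GC content gave a Spearman's rho of -0.62 in control 5, 0.59 in malonyl-CoA 5 and 0.50 in malonyl-CoA 1, as a description of libraries whose genes share depth and preparation. The median coefficient of variation over 8 libraries was 16.03% for the members and 18.9% for all genes. It was 15.5% for the 5415 genes within the members' middle range of level (33.1 to 295 CPM).

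Genes that work with the proteasome were read from 3 lists. The lists were chosen with earlier results of these data known. A list's share set beside that of all genes is therefore a description and not a test. Of 25 partner genes tested (such as enzymes of ubiquitin activation and ligation and regulators of subunit transcription), 12 had a positive and 13 a negative log2 fold change, the median was -0.03 and 0 passed. Nfe2l1, the transcription factor that raises subunit genes when the proteasome is blocked, had 161, 173, 219 and 139 CPM with malonyl-CoA, against 85.0, 124, 149.9 and 115 CPM in control (0.55, SE 0.19, edgeR adjusted p = 0.482). Control 4 alone lay above any treated library. Ngly1, which removes glycans from Nfe2l1, had 53.0, 54.2, 43.0 and 53.3 CPM with malonyl-CoA, against 69.1, 61.8, 55.7 and 66.7 CPM in control, with no overlap (-0.32, adjusted p = 0.503).

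Of 17 genes of peptide loading and MHC class I, 14 had a positive log2 fold change (53.4% of all genes), with a median of 0.38, and 0 passed. The median was 0.22 with the GC correction and 0.24 with the GC and length correction. An unadjusted p under 0.05 was found for 8 of the 17, all higher with malonyl-CoA (5.43% of all genes), and 5 had every treated library above every control (3.21% of all genes). H2-Q4, a class Ib heavy chain, had 71.1, 77.9, 77.5 and 77.7 CPM with malonyl-CoA, against 38.6, 51.5, 49.5 and 40.8 CPM in control (0.75, SE 0.12, edgeR adjusted p = 0.218). Nlrc5, the transactivator of class I genes, had 23.5, 31.5, 44.7 and 23.6 CPM with malonyl-CoA, against 9.98, 16.8, 17.6 and 15.8 CPM in control (1.03, SE 0.25, adjusted p = 0.352). The groups did not overlap in either gene. H2-Q6 (0.66, adjusted p = 0.352) and Tapbpl, a peptide editor of class I molecules (0.48, adjusted p = 0.380), likewise had no overlap. The class I heavy chain genes are close copies of each other, so their counts are uncertain. Tap1, given for the promoter stretch it shares with Psmb9 and with its values known, had 233, 235, 165 and 221 CPM with malonyl-CoA, against 176, 201, 158 and 119.0 CPM in control (0.38, SE 0.18, adjusted p = 0.515). Like Psmb9, it overlapped between the groups and was lowest in malonyl-CoA 4 and control 5 of their groups.

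Of 16 interferon and STAT regulators tested, 15 had a positive log2 fold change (median 0.22), against 53.4% of all genes. An unadjusted p under 0.05 in that direction was found for 6 of the 16 (5.43% of all genes), and 0 passed. The median was 0.13 with the GC correction, with 13 of 16 positive, and 0.09 with the GC and length correction. Irf1, the interferon-induced activator of Psmb9 and Tap1, had 63.4, 65.6, 59.9 and 58.9 CPM with malonyl-CoA, against 37.8, 47.4, 39.8 and 37.2 CPM in control (0.61, SE 0.12, edgeR adjusted p = 0.352). Its groups did not overlap, and malonyl-CoA 4 did not stand apart. Irf7 (0.88, adjusted p = 0.419), Ifngr2, a chain of the interferon gamma receptor (0.31, adjusted p = 0.468), and Stat3 (0.32, adjusted p = 0.502) were next. Ifng and Ifnb1 were too low to be tested. DESeq2 called H2-Q4, H2-Q6, Nlrc5 and Irf1 in these lists and no proteasome gene. Whether the fold changes of these regulators and of the immunoproteasome genes differ from each other was not tested.

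**Figure D5:**
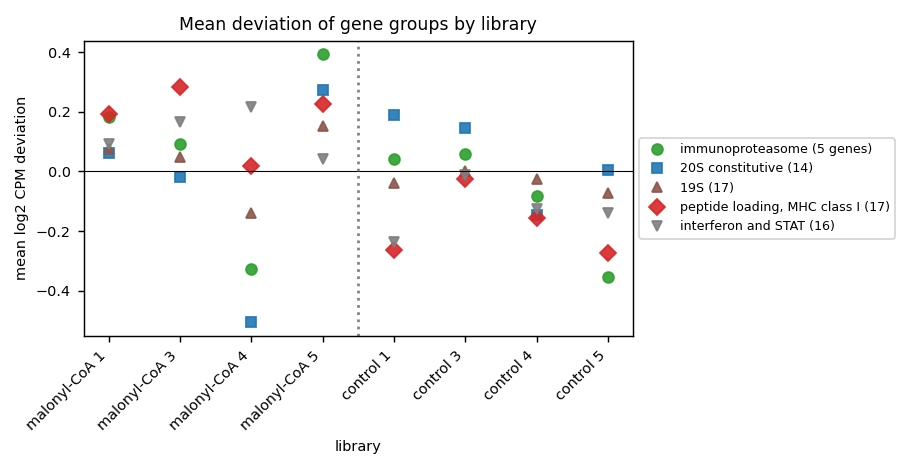
Mean log2 CPM deviation of each gene group in every library, malonyl-CoA libraries left of the dotted line and controls right of it. The immunoproteasome genes range from -0.33 to 0.39 with malonyl-CoA and from -0.35 to 0.06 in control, whereas the peptide loading and MHC class I genes lie at 0.02 to 0.28 with malonyl-CoA and at -0.27 to -0.02 in control.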

How the data were processed

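Total RNA of 4 malonyl-CoA and 4 control cultures was sequenced from libraries made with a stranded kit, per the labels' protocols. The authors deposited unnormalized counts per gene for each library. The submitters' processing notes name cutadapt 1.8, STAR 2.5.2b, HTSeq 0.6.1 and the build GRCm38. Which annotation release and strand setting were used is not given in the sources used here. Counter classes that name no gene (multi-mapped 38.2% to 51.1%, ambiguous 0.715% to 0.891%, in no gene 1.11% to 2.94% of tallied reads) entered neither library sizes nor tests. Of 48709 identifiers, 48349 matched GENCODE M21.

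All genes were fitted with edgeR 4.0.16 in R 4.3.3 (filterByExpr with minimum count 10 and total 15, TMM, robust glmQLFit, two-sided glmQLFTest, no covariate), and p was adjusted by Benjamini-Hochberg over 12696 genes with a threshold of 0.05. The fit was tested on simulated counts drawn gene by gene, without a GC trend or shifts shared between genes. That simulation cannot speak to the GC trends and low libraries described above. Intervals are 95% from the fit. Counting error at these depths is small beside the spread between libraries, except for the lowest members.

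Members and lists were chosen with earlier results of these data known. Genes named are the immunoproteasome genes and their counterparts, Psme4 and Psmf1, up to 2 members per other role and direction with the smallest p, and up to 4 per list, some of which are not reported here. Deviations used log2(CPM + 0.1). Alternatives were RLE factors, no composition factors, other low-count filters, a replicate block, DESeq2 1.42.0, limma-voom 3.58.1, loess corrections (span 0.5) for GC content and length, and leaving out libraries.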

Additional observations from a re-analysis of the deposited data

Results flagged for a closer look

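Each group of 4 libraries was checked for a value far from the other 3 by Dixon's test, over 132 groups, of which chance flags about 1 in 20. The test marked 11 groups, 9 with malonyl-CoA and 2 in control.

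Among proteasome genes, malonyl-CoA 4 was low for Psmd5 (99.1 CPM, the others 139.9 to 144), Psmd2 (291 CPM, the others 332 to 339.5) and Psmd8 (176 CPM, the others 251 to 262). Malonyl-CoA 5 was high for Psmd4 (143 CPM, the others 119 to 121) and for Psmg2 (58.2 CPM, the others 43.4 to 44.2), and low for Psme2b (1.01 CPM, the others 1.07). Control 5 was low for Psmb10 (64.2 CPM, the others 110.2 to 115), and control 4 for Psma2 (246 CPM, the others 292 to 301). In the lists, malonyl-CoA 4 was low for Ngly1 (43.0 CPM, the others 53.0 to 54.2), malonyl-CoA 1 for H2-Q4 (71.1 CPM, the others 77.5 to 77.9), and malonyl-CoA 3 was high for H2-Q6 (34.4 CPM, the others 26.5 to 27.6). The malonyl-CoA minus control difference of the log2 ratio of Psmb10 to Psmb7 was 0.37 with control 5 and malonyl-CoA 4 and 0.22 without them.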

How the results depend on the processing

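Proteasome genes called stayed at 0 under all 20 alternatives, and the lowest adjusted p of any member was 0.0806 (Psma8, replicate block). Over all genes, 1 was called without a low-count filter, 172 with the replicate block and 82 with DESeq2, against 0 in the edgeR fit reported and 0 with each library left out in turn. Same-numbered libraries deviated together with correlations of 0.43, 0.43, 0.75 and 0.05 for numbers 1, 3, 4 and 5. Libraries numbered 1, 3 and 4 correlated best with their own number and those numbered 5 did not. With the last correlation near 0, the numbers were not taken to pair the samples. The block gave 6 members an unadjusted p under 0.05 (Psma8, Psmc6, Psma6, Psmb1, Psmd3 and Psmd6), against 1 without it, and called H2-Q4, H2-Q6, Nlrc5 and Irf1, as did DESeq2. The median log2 fold change of the immunoproteasome genes ran from 0.02 with the GC correction to 0.28 without malonyl-CoA 4, and that of the other members from -0.08 to 0.08. As a difference of fitted log2 fold changes, Psmb8 to Psmb5 moved to 0.15 with the GC correction (0.05 as reported), Psmb10 to Psmb7 to 0.057 (0.35 as reported) and Psmb9 to Psmb6 to -0.24 with the GC and length correction (-0.05 as reported). The cause was not tested. Of 42 named genes, 28 kept their sign throughout and 14 turned at least once, each without a call. With the GC correction Psma7 turned to -0.22, Psmb5 to -0.13, Psmb7 to 0.063, Psmc3 to -0.026, Psme1 to -0.10, Psme4 to 0.00137, Psmf1 to -0.00015 and Psmg3 to -0.035. With GC and length, Psma7 turned to -0.13, Psmb7 to 0.088, Psmd14 to 0.0056, Psme1 to -0.048, Psmf1 to -0.012 and Psmg3 to -0.00494. Without control 5 and malonyl-CoA 4, Psmb7 turned to 0.037, Psme3 to 0.0047, Psme4 to 0.036 and Psmg3 to -0.070. An alternative added after seeing the data, the GC correction without those libraries, gave -0.00993 for Psma7, -0.0041 for Psmb5, 0.079 for Psmb7, 0.030 for Psmc6, 0.011 for Psmd10, 0.051 for Psme4, -0.021 for Psmf1 and -0.12 for Psmg3. Without both libraries numbered 4, Psmb7 turned to 0.014, Psme2b to -0.081 and Psme3 to 0.00052, and with library size only Psme3 to 0.0058. With each library left out in turn, Psma7 ran from -0.064 to 0.11, Psmb5 from -0.075 to 0.21, Psmb7 from -0.11 to 0.083, Psmb8 from -0.022 to 0.25, Psme2b from -0.068 to 0.34, Psme3 from -0.071 to 0.020, Psmf1 from -0.024 to 0.079 and Psmg3 from -0.16 to 0.15. At about 1 CPM, Psme2b rests on few reads.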
